A study of Mus musculus with 2 samples.

Results

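The matrix metalloproteinases (MMPs), their tissue inhibitors (TIMPs), and the ADAM and ADAMTS proteases were read from RNA-seq of adherent hepatic stromal cells. Members were all protein-coding genes of the GENCODE M21 annotation whose symbol begins with Mmp, Timp, Adam or Adamts followed by a digit. This gave 78 of the 38291 genes in the deposited files, with 22 MMPs, 4 TIMPs, 33 ADAMs and 19 ADAMTS genes. Both genotypes were C57/Bl6 males that carried floxed Foxf1 alleles, used at an age of 6 to 8 weeks and given CCl4, a hepatotoxin, for 5 weeks. Control Foxf1fl/fl mice were littermates without Cre, and the αSMACreER;Foxf1-/- group (titled αSMACreER;Foxf1 fl/fl in the labels) also carried a tamoxifen-inducible Cre driven by the αSMA promoter. That promoter is active in myofibroblasts and smooth muscle, so the model targets cells that express αSMA. Cells that adhered to culture dishes within 2 h were collected, and RNA was pooled within each genotype into 1 library. Because each genotype is a single library, the differences below lack a replicate check and carry no p-value. Tamoxifen was injected during the injury period. Foxf1 itself was not analysed here.

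MMPs are zinc-dependent proteases that are made as inactive precursors and cleave collagens, elastin and other matrix proteins. TIMPs block the active enzymes, and the balance between both is thought to influence how much scar collagen persists in injured liver. ADAMs are mostly membrane-bound and release the outer domains of cell surface proteins, whereas ADAMTS enzymes are secreted and process proteoglycans and procollagens. In fibrotic liver, stellate cells, myofibroblasts, macrophages and neutrophils are all known sources of members of these families.

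Levels are given as FPKM (fragments mapped to a gene, scaled by transcript length and by the mapped fragments of the library), which can be compared between genes because it is per length. Where a gene has a pair of values, Foxf1fl/fl comes first and αSMACreER;Foxf1-/- second. From the spacing of low FPKM values, about 9820000 mapped reads were estimated for Foxf1fl/fl and 11300000 for αSMACreER;Foxf1-/-. Whole reads, to a tolerance of 0.1, were matched by only 48.2% and 51.3% of the low values, so read numbers and intervals are approximate. Fold changes compare αSMACreER;Foxf1-/- with Foxf1fl/fl on the log2(FPKM + 0.1) scale, after scaling by the median ratio of all genes, a scale that understates the change of low genes. The intervals given with a fold change are approximate 95% counting intervals (exact, Clopper-Pearson), which cover counting error only and no difference between animals.

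Of the 78 members, 30 had a mean FPKM of at least 1 and an OK status in both libraries. Of these 30, 6 were at least 1.5-fold higher in αSMACreER;Foxf1-/- cells, against 12.9% of the 12861 genes that passed the same filter, and 2 were at least 1.5-fold lower, against 13.2% of those genes. The 6 were Adam12, Adam19, Adam10, Mmp25, Adamts5 and Adamts14, and the 2 were Adam11 and Mmp8. Adam12 and Adamts5 passed the filter through the αSMACreER;Foxf1-/- library, since both were below 1 in Foxf1fl/fl cells. The median log2 fold change of the 30 was 0.40, beside 0.0058 for all 12861 genes. If both libraries were instead given an equal FPKM sum, the median of all genes became 0.21, and 16 members were higher and 0 lower. Of all genes 2820 were then higher and 1121 lower, against 1662 and 1697 with the median ratio. With a pseudocount of 1 in place of 0.1, 3 members were higher and 0 lower, beside 1120 and 1372 of all genes. With the trend over transcript length removed, as described below, 1 member was higher and 2 lower, beside 1269 and 1413 of 12692 genes. With scaling by the median ratio, the 10 members that reached 50 FPKM in both libraries were all within 1.5-fold, whereas with an equal FPKM sum Mmp12, Adam8, Adamts1 and Mmp19 among them were higher, at log2 fold changes of 0.70, 0.71, 0.67 and 0.66. Of the 6 members higher with the median ratio, 5 were below an FPKM of 6 in both libraries.

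**Figure D1:**
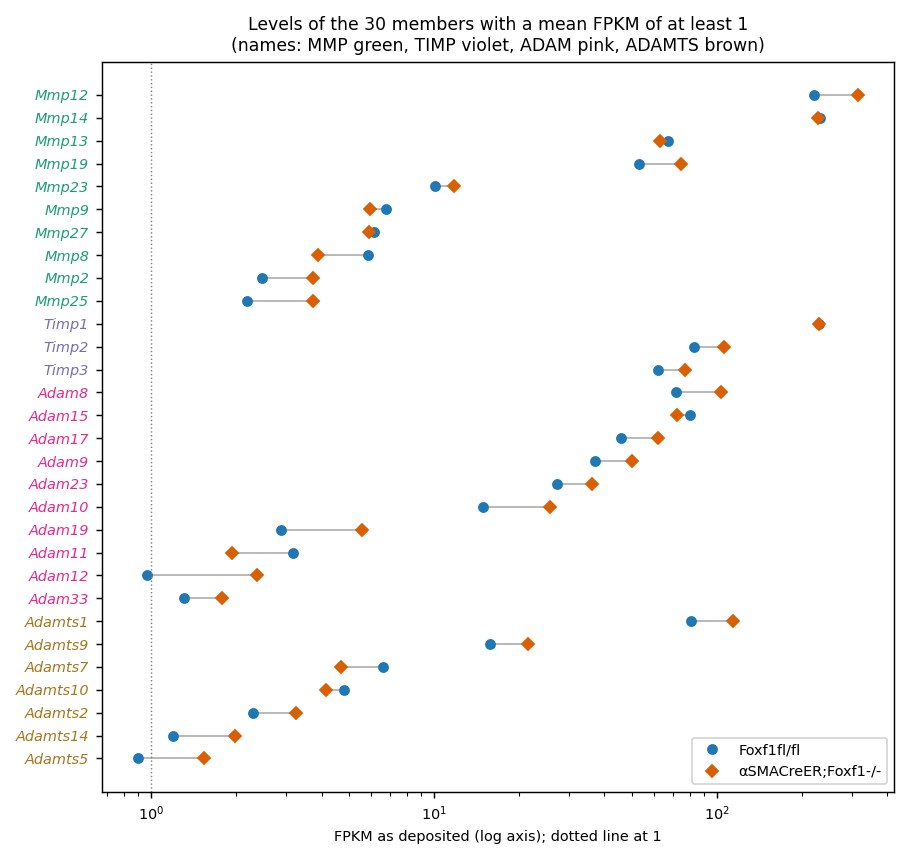
FPKM as deposited (horizontal log axis) of each of the 30 members that passed the filter, with a circle for the Foxf1fl/fl library and a diamond for the αSMACreER;Foxf1-/- library. Mmp12, Mmp14 and Timp1 lie above 200 in both libraries, and the lowest value shown is 0.898 for Adamts5 in Foxf1fl/fl cells.

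**Figure D2:**
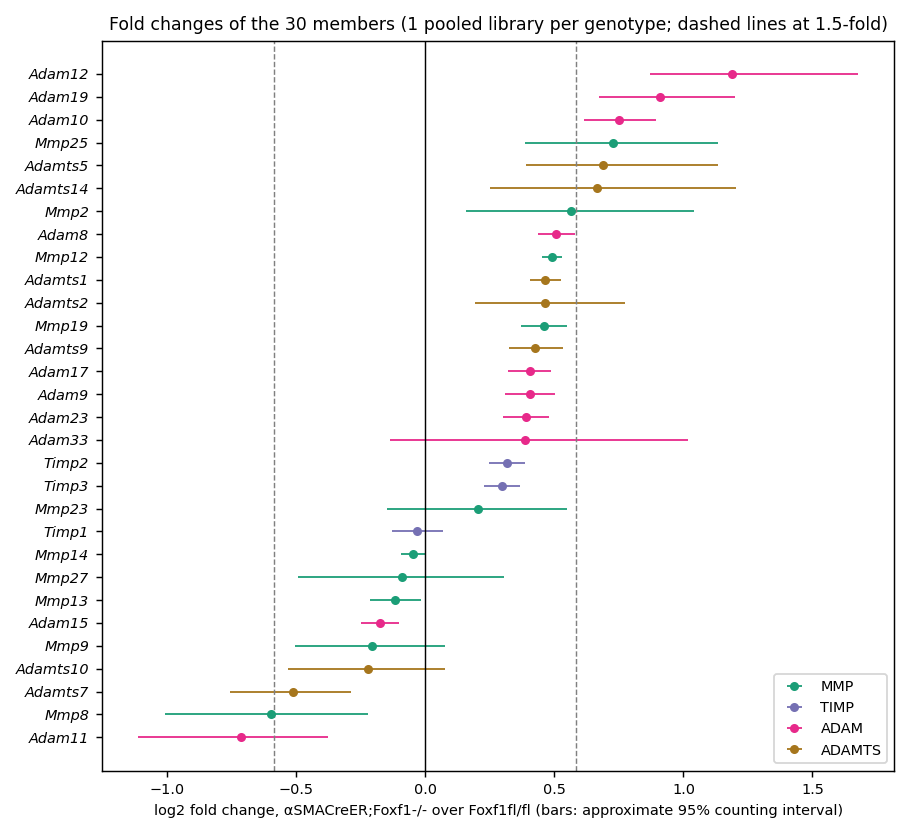
Log2 fold change of the same 30 members (horizontal axis) with approximate 95% counting intervals as bars and 1.5-fold marked by dashed lines. Adam12 is the highest at 1.19 and Adam11 the lowest at −0.71, and 22 members lie within 1.5-fold.

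Of the interstitial collagenases Mmp1b, Mmp8 and Mmp13, which make the first cut in fibrillar collagen, Mmp13 was the most abundant. The membrane-anchored Mmp14, at a higher level, is described below. Mmp13 (ENSMUSG00000050578), the main collagenase of rodents, had an FPKM of 67.2 and 63.0 (log2 fold change −0.12, interval −0.21 to −0.019). With scaling to an equal FPKM sum this small difference changed sign. Mmp8, the collagenase that neutrophils store in their granules, had 5.85 and 3.90 (log2 fold change −0.60, interval −1.01 to −0.22), from about 128 and 98 reads. It was no longer 1.5-fold lower under 5 alternatives, with log2 fold changes of −0.50 with a pseudocount of 1, −0.57 with the values as deposited or upper-quartile scaling, −0.51 with the length trend removed and −0.40 with an equal FPKM sum. Mmp1b was listed at 0 in both libraries.

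Most neutrophil markers, among them granule genes and Ly6g, were lower in the αSMACreER;Foxf1-/- library as well, while the receptors Csf3r and Cxcr2 were not. Of 12 neutrophil markers, 10 were at least 1.5-fold lower and 0 higher, and their summed FPKM was 2562 and 1071. S100a8 had 625 and 256, S100a9, the most abundant, had 1258 and 504, and Ly6g had 9.82 and was listed at 0 in αSMACreER;Foxf1-/- cells. Csf3r, a receptor for the neutrophil growth factor G-CSF, had 48.4 and 53.6, and Cxcr2, a neutrophil chemokine receptor, had 1.55 and 1.88. The part of neutrophils in the Mmp8 value was not tested. In such bulk libraries fewer cells of a type and less RNA per cell cannot be told apart.

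The gelatinases degrade denatured collagen and basement membrane. Mmp9 (gelatinase B, made by neutrophils and macrophages) had 6.76 and 5.95, a log2 fold change of −0.21 with an interval that includes no change (−0.50 to 0.077). Mmp2 (gelatinase A, ENSMUSG00000031740), a product of stellate cells and myofibroblasts, was lower in level, with 2.46 and 3.75. Its fold change of 1.48 (log2 fold change 0.56, interval 0.16 to 1.04) lay just under the threshold of 1.5. It passed the threshold under each of the other scalings. The log2 fold change was then 0.59 by upper quartile or with the values as deposited, and 0.76 by equal FPKM sum. With a pseudocount of 1 or with the length trend removed it stayed under the threshold, at 0.44 and 0.56. About 69 and 122 reads stood behind the Mmp2 levels. The gelatinases thus had levels well below those of Mmp12, Mmp13 and Mmp14 in both libraries.

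Mmp12 and Mmp14 were the most abundant proteases of the whole group. Mmp12 (ENSMUSG00000049723), the elastase of macrophages, had 221 and 316 (log2 fold change 0.49, interval 0.45 to 0.53) on about 9264 and 15250 reads, and its value with the length trend removed was 0.30. Its level lay at percentile 97.3 and 98.3 of the genes above 0 in the respective library. Mmp14, a membrane-anchored collagenase that also activates the Mmp2 precursor, had 232 and 228 (log2 fold change −0.048, interval −0.095 to −0.00088). The interval of Mmp14 nearly reached 0, and scaling to an equal FPKM sum turned its sign. Together with Mmp13 these genes held 85.1% of the summed MMP level in control cells and 84.2% in αSMACreER;Foxf1-/- cells.

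The other membrane-bound MMPs were low. Mmp25, which is anchored by a lipid and was first described in leukocytes, had 2.17 and 3.73 (log2 fold change 0.73, interval 0.39 to 1.13). Unlike Mmp8 and most neutrophil markers, Mmp25 was higher in αSMACreER;Foxf1-/- cells. With a pseudocount of 1 or with the length trend removed it was no longer past 1.5-fold. Mmp15 and Mmp17 were below an FPKM of 1 in both libraries, and Mmp16 and Mmp24 were above 0 in Foxf1fl/fl cells only. Mmp16 had 0.310 there, from about 15 reads, and was listed at 0 in αSMACreER;Foxf1-/- cells.

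Among the remaining MMPs, Mmp19, a soluble MMP that cleaves basement membrane proteins, had 53.2 and 74.4 (log2 fold change 0.46, interval 0.37 to 0.55). Mmp23 had 10.0 and 11.8, and Mmp27 had 6.15 and 5.87, and both intervals included no change. The stromelysins Mmp3, Mmp10 and Mmp11 and the matrilysin Mmp7, which cleave proteoglycans and other non-collagen matrix proteins, did not pass the filter. Mmp10 had 0.466 and 1.04 from about 7 and 18 reads, whereas Mmp11 went the other way with 0.883 and 0.230 from about 18 and 5 reads.

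In the mouse, 9 of the protein-coding MMP genes lie close together on chromosome 9 within 427 kb (GRCm38, 7272514 to 7699585), in the order Mmp13, Mmp12, Mmp1b, Mmp3, Mmp10, Mmp8, Mmp27, Mmp20 and Mmp7. Mmp1a, which lies between Mmp3 and Mmp10, is annotated as a polymorphic pseudogene and so is not a member, and it was listed at 0 in both libraries. The levels of the 9 members spanned the whole range of the family. Only 4 of the 9 passed the filter, namely Mmp13, Mmp12, Mmp8 and Mmp27, while Mmp1b, which overlaps the end of Mmp12 on the opposite strand by 157 exonic bases, was listed at 0.

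**Figure D3:**
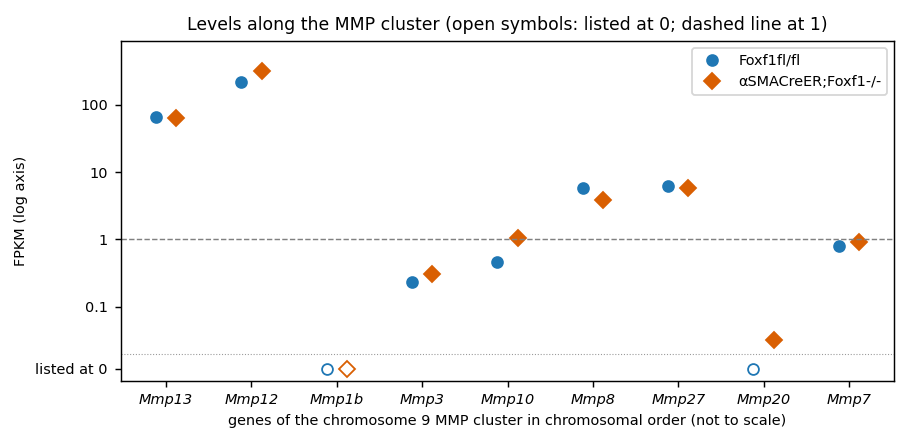
FPKM (vertical log axis) of the 9 genes of the chromosome 9 cluster in their order along the chromosome, with open symbols for values listed at 0. Mmp12 at 221 and 316 and Mmp13 at 67.2 and 63.0 stand far above their neighbours in both libraries.

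Several promoters of this cluster share the AP-1 letters, a binding motif of the Fos and Jun factors that is a textbook element of MMP promoters. Promoter windows (250 bases before to 50 after the start, RefSeq, GRCm38.p6) were found for 48 of the 78 members. The letters TGAGTCA were searched on both strands, where the reverse reads TGACTCA. They stood in the window of 6 of the 9 cluster genes and in 3 of 39 other members (Adam19, Adam1b and Adam29), beside 5.95% of the 27025 genes in the promoter table. The 6 stretches below are printed on the strand of the gene with 20 bases on either side and with the motif in capitals, because they place the same letters before genes of very different level.
Mmp13, chr9:7272459-7272505: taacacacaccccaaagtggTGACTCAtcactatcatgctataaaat
Mmp12, chr9:7347310-7347356: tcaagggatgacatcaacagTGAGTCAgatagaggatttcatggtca
Mmp1b, chr9:7388093-7388139, minus strand: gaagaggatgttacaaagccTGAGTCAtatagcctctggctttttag
Mmp3, chr9:7445756-7445802: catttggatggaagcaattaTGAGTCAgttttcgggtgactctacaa
Mmp10, chr9:7502259-7502305: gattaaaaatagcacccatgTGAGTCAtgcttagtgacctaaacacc
Mmp7, chr9:7692007-7692053: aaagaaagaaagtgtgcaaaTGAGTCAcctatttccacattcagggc
The motif began 35 bases before the start in Mmp13, 44 in Mmp12, 46 in Mmp3, 63 in Mmp10 and Mmp7 and 93 in Mmp1b. For Mmp12 this is the second of its RefSeq starts. The levels of these genes ran from 0 for Mmp1b to 316 for Mmp12, so the letters were present at genes with high, low and no listed expression. A match is a description of sequence and not a measured binding site.

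Since Foxf1 encodes a forkhead factor, the forkhead letters GTAAACA (reverse TGTTTAC) were searched in the same windows. They stood in 5 of the 48 members, Adam8, Adam19, Adamts13, Mmp10 and Mmp13, beside 4.05% of all genes. Of the 8 members past 1.5-fold, 5 had a window, and Adam19 was the only one of them with these letters, while Adam12, Adamts5 and Adam11 were not searched. Among the members within 1.5-fold, Mmp2 and Mmp9 also had no window and were not searched. Adam8 and Mmp13, with the same letters, were within 1.5-fold, and Mmp10 and Adamts13 did not pass the filter. Here too a match describes sequence only, and a link to the fold change was not tested. The Adam19 match, printed below in capitals, lies 175 bases before a RefSeq start that is ahead of the GENCODE gene start. It was picked because the gene is among the largest differences of the group.
Adam19, chr11:46054307-46054353: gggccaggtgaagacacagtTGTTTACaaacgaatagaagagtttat

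The TIMPs were expressed at the same order of level as the main MMPs. Timp1 (ENSMUSG00000001131, chromosome X), the TIMP most strongly linked to liver fibrosis, had 230 and 229. Its log2 fold change was −0.032 with an interval that includes no change (−0.13 to 0.068). Timp1 has a short transcript of 883 bases, and its value changed sign when libraries were scaled to an equal FPKM sum and also after the length trend was removed. Timp2 (ENSMUSG00000017466), which inhibits MMPs and also takes part in Mmp2 activation, had 83.1 and 105 (log2 fold change 0.32, interval 0.25 to 0.39).
Timp3, which is bound to the matrix and inhibits ADAM17 and aggrecan-cleaving ADAMTS enzymes, had 61.6 and 77.04 (log2 fold change 0.30, interval 0.23 to 0.37). Timp2 and Timp3 were thus both higher in αSMACreER;Foxf1-/- cells, by less than 1.5-fold. With the length trend removed their log2 fold changes were 0.22 and 0.098, each below its interval. Timp4 was listed at 0 in control cells and at 0.0746 in αSMACreER;Foxf1-/- cells, from about 4 reads. Timp3 shares 1733 exonic bases with Syn3 on the opposite strand, and whether reads were counted by strand is not given in the sources used here. The same limit holds for Adamts9, Adam15, Mmp19, Adam19 and Adam17, which share 1381, 1263, 789, 587 and 311 exonic bases with a gene on the opposite strand. Summed over the family, TIMP levels were 375 and 411 FPKM and MMP levels 610 and 720. The ratio of the TIMP sum to the MMP sum was 0.614 in control cells and 0.571 in αSMACreER;Foxf1-/- cells. This order rests on Mmp12, and without it, a step added after the values were seen, the ratios were 0.962 and 1.02.

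Among the ADAMs, the largest differences were in genes of moderate or low level. Adam12, a protease induced in activated stellate cells and other mesenchyme, had 0.964 and 2.36. Its log2 fold change was 1.19 (interval 0.87 to 1.68) on about 71 and 200 reads. Of the 30 members that passed the filter, Adam12 was the only one past 2-fold. It was also the only one still 1.5-fold higher after the length trend was taken out (0.82). That Adam12 passed 2-fold depended on the pseudocount. Raising the pseudocount to 1 gave 0.76, which is below the interval and under 2-fold but still past 1.5-fold. Adam19, which cleaves neuregulins and is expressed in developing mesenchyme, had 2.87 and 5.57 (log2 fold change 0.91, interval 0.67 to 1.20). Adam10, the sheddase that activates Notch receptors, had 14.9 and 25.6 (log2 fold change 0.75, interval 0.62 to 0.89). With the length trend removed Adam19 and Adam10 had 0.57 and 0.55, just under the threshold.

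The more abundant ADAM sheddases were also mostly higher, but by less than 1.5-fold. Adam8, a leukocyte sheddase, had 71.6 and 104 (log2 fold change 0.51, interval 0.44 to 0.58). Adam17, the enzyme that releases TNF and ligands of the EGF receptor, had 45.8 and 61.7 (log2 fold change 0.40, interval 0.32 to 0.49), and 0.22 with the length trend removed. Adam9, a widely expressed sheddase, had 37.1 and 50.04, which is also 0.40.
Adam15, an ADAM that carries an integrin-binding sequence, was the exception, with 80.1 and 72.3 (log2 fold change −0.17, interval −0.25 to −0.10). Its sign turned with scaling to an equal FPKM sum. Adam33 had 1.31 and 1.78 with an interval that includes no change. Adam28 had 0.0723 and 0.0653, from about 2 and 3 reads.

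Adam11, Adam22 and Adam23 lack protease activity and are known as neuronal adhesion proteins. Adam23 was nevertheless well expressed here, with 27.1 and 36.2 (log2 fold change 0.39, interval 0.30 to 0.48), but its value with the length trend removed was 0.023. Adam11, whose call was lost with a pseudocount of 1 and with an equal FPKM sum, was lower in αSMACreER;Foxf1-/- cells, with 3.17 and 1.93 (log2 fold change −0.71, interval −1.11 to −0.38) on about 153 and 107 reads. Adam22 had 0.0901 and 0.218. The 3 genes thus differed in both level and direction.

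Of the ADAMTS genes that cleave versican and aggrecan, Adamts1 was the most abundant with an OK status. It had 80.8 and 113 (log2 fold change 0.46, interval 0.40 to 0.52), and 0.27 with the length trend removed. Adamts9 had 15.7 and 21.5 (log2 fold change 0.42, interval 0.32 to 0.53), which changed sign to −0.067 with the length trend removed. Adamts5, the main aggrecanase of mouse cartilage, was low at 0.898 and 1.54 (log2 fold change 0.69, interval 0.39 to 1.13). The longest Adamts5 transcript has 10791 bases, and its value with the length trend removed was 0.20. Adamts4 is left out of these counts because of its status.

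The procollagen N-proteinases trim fibrillar procollagens before they assemble into fibrils. Adamts2 had 2.30 and 3.26 (log2 fold change 0.46, interval 0.19 to 0.78), and Adamts14 had 1.19 and 1.98 (log2 fold change 0.66, interval 0.25 to 1.20). With the length trend removed Adamts2 had 0.097 and Adamts14 0.42. Both were higher in αSMACreER;Foxf1-/- cells, Adamts2 by less than 1.5-fold and Adamts14 on about 58 and 112 reads. The calls of Adamts5 and Adamts14 were lost with a pseudocount of 1 and with the length trend removed. Adamts3 was at 0.170 and 0.289. In contrast, Adamts7 and Adamts10 went the other way. Adamts7, which degrades cartilage oligomeric matrix protein, had 6.62 and 4.69 (log2 fold change −0.51, interval −0.76 to −0.29). With the length trend removed its value was −0.76, past the threshold. Adamts10, which acts on fibrillin microfibrils, had 4.79 and 4.16, with an interval that includes no change.

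The other 47 members with an OK status had a mean FPKM under 1. Of these, 18 were above 0 in both libraries, with values of 0.0331 to 1.04. Those not described above or below were Adam1a, Adam30, Adamts15, Adamts17 and Mmp28. Another 2 were above 0 in Foxf1fl/fl cells only and 11 in αSMACreER;Foxf1-/- cells only, the more deeply sequenced library. Among all 38291 genes, 982 were above 0 in Foxf1fl/fl cells only and 1719 in αSMACreER;Foxf1-/- cells only. Among the 21112 protein-coding genes, these counts were 430 and 785. The 11 were Adam1b, Adam3, Adam4, Adam21, Adam32, Adamts8, Adamts16, Adamts20, Mmp20, Mmp21 and Timp4. Listed at 0 in both libraries were 16 members, which were Mmp1b, Adamts18 and the 14 ADAM genes Adam2, Adam5, Adam6a, Adam6b, Adam7, Adam18, Adam20, Adam24, Adam25, Adam26a, Adam26b, Adam29, Adam34 and Adam39. Most of these ADAM genes are known from testis and sperm. At the estimated depth, 3 reads on the longest transcript of these 16 genes would give an FPKM of 0.0561 to 0.244 in the control library and of 0.0488 to 0.212 in the other. Since some members were listed above 0 from about 1 read, this is the level that a count of 0 allows and not the lowest value that can be listed. Chromosome 8 holds 13 of the ADAM genes, of which 10 were listed at 0 in both libraries and 1, Adam9, passed the filter.

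Among the low members, Adam32, the chromosomal neighbour of Adam9, was listed at 0 in Foxf1fl/fl cells and had an FPKM of 1.42 in αSMACreER;Foxf1-/- cells, from about 36 reads. Adamts6 had 0.230 and 0.614, Adamts19 0.379 and 0.717, and Adamts12 0.0331 and 0.216. These secreted proteases had higher values in αSMACreER;Foxf1-/- cells on at most about 52 reads. Adamts13, the protease of von Willebrand factor that quiescent stellate cells are known to make, had 0.124 and 0.172, from about 5 and 8 reads.

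Genes that activate or restrain these proteases were compared next, from a list of 45 of which 44 were in the files and 30 passed the filter. Of the 30, 1 was at least 1.5-fold higher and 6 were lower (3.33% and 20%, beside 12.9% and 13.2% of all genes), and their median log2 fold change was −0.061. The most abundant by the mean of both libraries were Plaur, the receptor of the plasminogen activator urokinase, with 443 and 361, Thbs1, the matrix glycoprotein thrombospondin 1, with 314 and 421, and Cd44, a hyaluronan receptor that binds MMPs, with 204 and 260. Bsg, an inducer of MMPs, had 235 and 183, above Cd44 in control cells. The gene past the threshold upwards was Spock2, a proteoglycan, with 0.657 and 1.41, which passed the filter through the αSMACreER;Foxf1-/- library.
Plg, the precursor of plasmin, which activates several MMPs, had 38.3 and 15.2, and Serpinf2, the plasmin inhibitor, had 29.0 and 10.1. Both are made by hepatocytes. The proprotein convertase Pcsk6 had 3.11 and 1.31, while Furin, which activates Mmp14 and many ADAMs, had 159 and 162. Tspan17 had 16.3 and 7.65 and Tspan33 had 4.37 and 2.83, whereas Tspan14 had 27.9 and 33.3. All of these tetraspanins escort Adam10 to the cell surface. Adamtsl1, a protease-free relative of the ADAMTS enzymes, had 1.97 and 0.744, and passed the filter through the control library. Reck, a membrane inhibitor of several MMPs, was at 0.127 and 0.397.

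Markers of the cell types in the preparation were read beside these values. The label names stromal cells, whose markers ranged from high to absent. Des had 1.70 and 3.29, Acta2 had 7.77 and 5.65, Pdgfrb had 1.03 and 1.43, Lrat had 0.0778 and 0.111, and Gfap was listed at 0 in both libraries. Matrix genes of the same list were abundant, with Dcn at 127 and 186, Col3a1 at 115 and 164, and Col1a1 at 70.2 and 103. The 16 stellate cell and myofibroblast markers summed to 2184 and 2492 FPKM, of which Vim, also expressed in leukocytes and endothelium, made up 1837 and 1996. Among the 12 at a mean FPKM of 1 or more, 2 were past 1.5-fold upwards and 0 downwards, with a median log2 fold change of 0.46.
Macrophage markers were far more abundant. The 13 Kupffer cell and macrophage markers summed to 13387 and 11060 FPKM, led by Lyz2 with 3682 and 3395, and their median log2 fold change was −0.35, with 0 past the threshold upwards and 2 downwards. Clec4f had 1117 and 753, Adgre1 162 and 165 and Cd68 646 and 679. Of 9 markers of monocyte-derived macrophages, 1 was higher and 1 lower, with sums of 2424 and 2517, a median of 0.27 and Chil3 as the most abundant with 656 and 739. The first of these markers, Ccr2, Ly6c2 and Cx3cr1, had 6.06 and 9.09, 166 and 234, and 2.30 and 3.82. The marker past the threshold upwards was Cx3cr1, and the one downwards was S100a4, with 637 and 392.

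All 11 hepatocyte markers in the files were at least 1.5-fold lower in αSMACreER;Foxf1-/- cells. Their sum was 4297 and 1542, Alb had 2292 and 912, Ttr had 322 and 86.8, Apoa1 had 261 and 84.2, and the median log2 fold change was −1.54. Of 9 endothelial markers, 0 passed 1.5-fold in either direction, with sums of 757 and 775, a median of 0.20 and Clec4g leading with 254 and 187. Pecam1 had 93.3 and 96.6, Stab2 had 64.0 and 85.9, and Lyve1 had 66.1 and 77.3, each within 1.5-fold. Cholangiocyte and platelet markers likewise had 0 past the threshold among the 5 and 3 that passed the filter. All 6 cholangiocyte markers summed to 553 and 655, with Spp1, which macrophages also make, at 495 and 606, Krt19 at 39.7 and 29.5, Krt7 at 4.91 and 6.91, and Epcam at 8.38 and 5.65. All 5 platelet markers summed to 75.9 and 62.4, with Pf4 at 64.5 and 51.4, Ppbp at 1.54 and 2.24, and Itga2b at 8.25 and 7.67. Lymphocyte and mesothelial markers were read in the same way. Of 6 B cell and plasma cell markers 2, Jchain and Mzb1 (13.3 and 6.25), were lower, with sums of 150 and 94.3, Jchain at 78.8 and 26.0, Cd79a at 24.6 and 24.0, Cd79b at 23.3 and 24.7, and Ms4a1 at 2.76 and 3.99. Of the 5 T and NK cell markers that passed the filter 1, Cd4 (6.34 and 14.1), was higher. All 6 in the list summed to 47.0 and 64.7, with Nkg7 at 19.7 and 24.3, Cd3e at 8.02 and 9.88, Cd3d at 7.90 and 8.96, and Cd8a at 4.48 and 6.68. Of 5 mesothelial markers 1, Lrrn4 (3.74 and 7.49), was higher, with sums of 38.1 and 46.6, Upk3b at 13.1 and 14.2, Msln at 11.4 and 13.1, and Wt1 at 6.41 and 8.27. Whether the mix of cells accounts for any member's value was not tested.

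**Figure D4:**
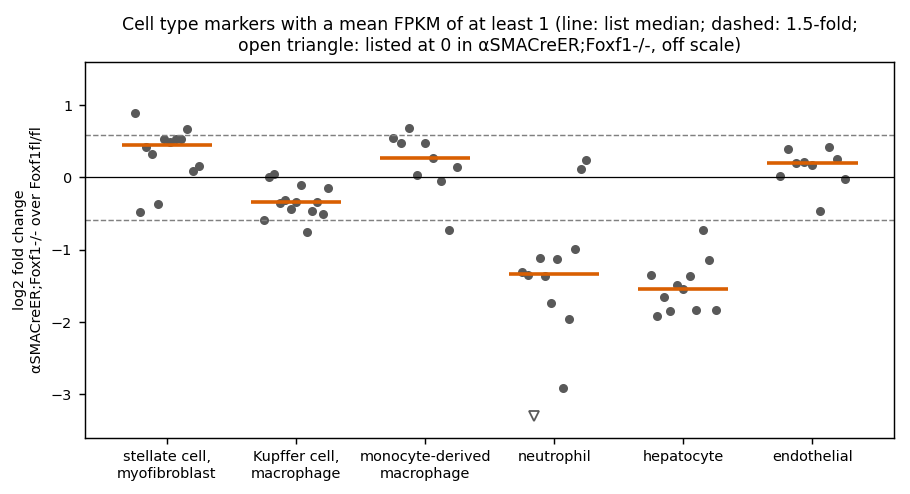
Log2 fold change (vertical axis) of single marker genes that passed the filter in 6 cell type lists, with each list's median as a line and 1.5-fold marked by dashed lines. Neutrophil and hepatocyte medians lie at −1.33 and −1.54, whereas the stellate cell and myofibroblast median lies at 0.46 (0.20 with the length trend removed).

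Across all genes the fold change moved with transcript length, and the members are long. Genes with a longest transcript of at most 1850 bases had a median log2 fold change of −0.32, and those of 4520 bases or more had 0.32. The 30 members had a median longest transcript of 4295 bases, against 3066.5 for all genes that passed the filter, and 12 of the 30 had one of 3067 to 4518 bases and 13 had a longer one. With the median of each of 20 length groups subtracted, the median of the members was 0.22 instead of 0.40, and 21 of the 30 were above 0, against 20 without this step. Of these 30, the only member still 1.5-fold higher was then Adam12, and Adam11 and Adamts7 were 1.5-fold lower. The medians of the marker lists moved as well, to 0.20 for stellate cells and myofibroblasts, −0.12 for Kupffer cells and macrophages (with 1 lower instead of 2), 0.38 for monocyte-derived macrophages (with 0 past the threshold in either direction), −0.0084 for endothelium, −1.002 for neutrophils and −1.31 for hepatocytes. The neutrophil list then had 9 markers lower, the stellate cell and myofibroblast list 3 higher, the platelet list 1 higher and the T and NK cell list 2 higher. What makes the fold change vary with length was not tested.

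**Figure D5:**
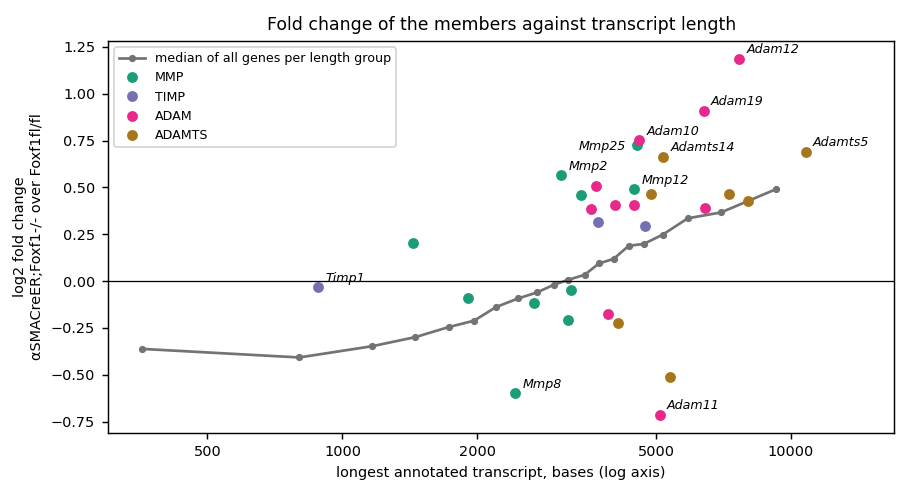
Log2 fold change of the 30 members (vertical axis) against the length of the longest annotated transcript (horizontal log axis), with a grey line through the medians of 20 length groups of all genes. The grey line runs from −0.36 at the shortest to 0.49 at the longest group, and Adam12 and Adam19 stand furthest above it.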

How the data were processed

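The authors aligned single-end reads with TopHat (build mm10 in the submitters' processing notes) and deposited Cufflinks FPKM per Ensembl gene, with a status for each estimate. Versions of TopHat and Cufflinks are not given in the sources used here. Quantification with DESeq, also named in those notes, was not used here.

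Of 38320 entries, 36490 (95.2%) had a symbol in GENCODE M21 (GRCm38), and the others kept their identifier. Where a symbol was repeated, its most abundant entry was used. Counts leave out 3 entries whose status was a failure in either library. The αSMACreER;Foxf1-/- values were divided by 1.02, the median ratio of 12011 genes that reached 1 FPKM in both libraries. With 1 library per genotype no test was made, and genes were counted at the 1.5-fold of the study's methods. Reads were placed on the longest transcript with an assumed fragment of 200 bases, which overstates the reads of genes that use a shorter form.

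The members, lists and alternatives were chosen with earlier results of these data known. Described one by one were members with a mean FPKM of at least 1, genes of the activator and inhibitor list past 1.5-fold, its 3 most abundant, and the first and most abundant markers. Other genes named, among them members of low level, Furin, Bsg, Tspan14, Reck, Lrat, Dcn, Col3a1, Col1a1, Cd4, S100a4, Mzb1, Lrrn4, Csf3r and Cxcr2, were chosen after their values were seen. The scaling and calls were also run on simulated counts that held counting error only. That simulation had no length trend and no difference between animals, so it does not bear on either limit. Calculations used Python 3.11.15 with scipy 1.17.1, pandas 2.3.3 and numpy 2.4.6, and plots used matplotlib 3.10.9.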

Additional observations from a re-analysis of the deposited data

Results flagged for a closer look

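Adamts4, a protease of aggrecan and versican, lay outside the counts because Cufflinks gave it a failed status in both libraries. Its listed FPKM stood at 72.0 for the control and 97.7 for the αSMACreER;Foxf1-/- library, well above 0.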

How the results depend on the processing

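No paired analysis was possible because there was only 1 library for either genotype. Counts of members at least 1.5-fold higher, 6 of 30, became 3 with a pseudocount of 1 and 7 with the values as deposited or upper-quartile scaling. They became 16 with an equal FPKM sum, 1 with the length trend removed and 1 at 2-fold. With other filters they were 19 of 61 with no filter on low values and 1 of 19 at the higher filter (mean FPKM of 5). Counts of members lower, 2, became 0 with a pseudocount of 1, an equal FPKM sum, a mean FPKM of at least 5 or 2-fold, 1 with the values as deposited or upper-quartile scaling, and 6 with no filter. The median of the members, 0.40, was 0.60 with an equal FPKM sum and stayed above 0 under the 8 alternatives run for it, the lowest being 0.22 with the length trend removed.

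Among all genes, 1662 were higher and 1697 lower, against 1120 and 1372 with a pseudocount of 1 and 1269 and 1413 of 12692 with the length trend removed. Likewise, 2820 were higher and 1121 lower with an equal FPKM sum and 581 and 800 at 2-fold. The counts were 1779 and 1602 with the values as deposited, and 1776 and 1604 with upper-quartile scaling. With other filters they were 3978 and 3304 of 19823 genes with no filter, and 692 and 953 of 8553 at the higher filter of 5. Of the 30 members, an equal FPKM sum moved 15 and the length adjustment 17 past their counting interval, and 5 and 3 of the 30 changed sign, none of these past 1.5-fold before. All 8 members past 1.5-fold also had intervals without 0, as did most such genes at large. Of all genes past 1.5-fold, 1396 of 1662 higher and 1404 of 1697 lower had such intervals, which cover counting error only. The cause of these changes was not tested. Depth limits the members below an FPKM of 1 most, and Adam33, at about 43 and 68 reads, among those counted.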
